A study of Homo sapiens with 5 samples.

Results

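In DLD-1 cells, 1156 introns of 81 to 2000 bp, in 891 genes, had a retention below 1% in both control libraries and are described here. Retention compares reads inside an intron with reads spliced across it, as a percentage of both. The introns were selected on measured values. An intron had to be listed in both the SNW1 RNAi table and the WBP11 auxin table and to be marked clean in its deposited name. It also had to have a depth of at least 50 in all 4 libraries. The clean mark did not exclude every overlap, as 73 of the 1156 introns lie inside an exon of another annotated transcript. Depth here is the intron's coverage plus its spliced reads. Of 34560 introns listed in any of the 3 tables, 13420 were listed in both, 12754 of these were clean, 10139 had the length, 1514 passed the control ceiling and 1156 passed the depth minimum. The lists held an intron only where its retention reached 1% in at least 1 of the 2 libraries. Each of the 1156 introns therefore had to reach 1% in both the SNW1 RNAi and the WBP11 auxin library, so the direction of the change was fixed by the choice and its size above that level is given as a description.

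The samples were 5 libraries of polyadenylated RNA from DLD-1, a human colorectal adenocarcinoma cell line, with 1 library per group and no replicates. SNW1_RNAi cells (DLD-1 LacZeo) received 100 nM SNW1 siRNA for 72 h, and WBP11_RNAi cells of the same line received WBP11 siRNA at the same dose and time. Both were set against 1 shared control library of DLD-1 LacZeo cells. Its label lists no treatment, whereas the header of the tables names it an RNAi control. WBP11_Auxin and Control_Auxin cells (both DLD-1 LacZeo osTIR1, which carry a plant auxin receptor) received 500 uM auxin over 48 h. Per the study's design text, auxin depletes an AID-tagged WBP11 transgene in cells whose endogenous WBP11 is knocked out, and the labels do not say whether the auxin control carries any of these alleles. The degron line without auxin was not analysed here, so the tag, the knockout and the depletion cannot be told apart. With 1 library per group no test was possible, and the intervals given (Wilson for a ratio, Newcombe for a difference, both 95%) cover counting error only.

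Introns are removed from pre-mRNA by the spliceosome, which reads the GU at the start of an intron, a branch point, a pyrimidine-rich stretch and the AG at the end. WBP11 is a spliceosome-associated protein that binds WW-domain proteins and protein phosphatase 1, and SNW1 (also called SKIP) is a core component of the activated spliceosome. A short intron leaves little room between the 5' splice site and the branch point, and an intron that is kept in a coding transcript often brings a stop codon into frame.

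The targeted genes were lower in the libraries labelled as depleted. In SNW1 RNAi the 2 listed introns of SNW1 had 31 spliced reads, against 401 in the control, which is 10.2% after scaling to the total of listed introns. In WBP11 RNAi the 2 listed introns of WBP11 had 20 spliced reads, against 312 in the control (6.75%). The 1 listed WBP11 intron of the auxin pair had 103 spliced reads in WBP11 auxin and 235 in the auxin control (38.0%), which reports RNA and not the degraded protein. Of the epithelial and colon markers, KRT18, KRT19 and CDH1 were listed in all 3 tables and KRT8, CDX2 and CEACAM5 in 1 each, while EPCAM, KRT20, VIL1 and LGALS4 had no listed intron. The markers of other cell types, PTPRC, CD3E, COL1A1, COL1A2, PECAM1 and VIM, had none either. Listing needs retained reads, so absence from a list is no measure of expression.

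Whole intron sequences were held for 73 of the 1156 introns, those that lie inside an exon of a GENCODE release 29 transcript annotated as a retained intron. The sequences below show the introns that rose by at least 10 percentage points after WBP11 loss in the degron line, beside short introns that did not. Capitals mark the first 6 and the last 20 bases, which hold the 5' splice site and the end of the intron with its pyrimidine-rich stretch. The positions (hg38) are ACTR10 chr14:58223702-58223782 (plus strand), CNOT2 chr12:70342169-70342257 (plus strand), COPS3 chr17:17270808-17270895 (minus strand), ATXN2L chr16:28825681-28825769 (plus strand) and ERBB3 chr12:56087914-56088020 (plus strand), followed by PDHB chr3:58431794-58431876 (minus strand), DNAJC19 chr3:180988097-180988177 (minus strand) and RPL17-C18orf32 chr18:49491446-49491531 (minus strand). The first 5 had risen in WBP11 auxin, and the other 3 are the unraised introns of 81 to 90 bp with the lowest share of G and C, chosen for contrast after their values were seen.
ACTR10: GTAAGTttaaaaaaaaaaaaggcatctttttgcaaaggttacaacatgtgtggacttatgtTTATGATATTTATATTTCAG
CNOT2: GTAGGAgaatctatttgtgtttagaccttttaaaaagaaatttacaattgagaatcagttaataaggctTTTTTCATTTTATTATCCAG
COPS3: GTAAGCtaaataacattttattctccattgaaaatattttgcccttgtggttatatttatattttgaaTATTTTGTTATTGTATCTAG
ATXN2L: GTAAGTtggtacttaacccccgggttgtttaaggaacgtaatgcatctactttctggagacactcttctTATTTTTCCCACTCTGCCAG
ERBB3: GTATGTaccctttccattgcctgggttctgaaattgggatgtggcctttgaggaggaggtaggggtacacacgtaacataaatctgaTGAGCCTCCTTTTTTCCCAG
PDHB: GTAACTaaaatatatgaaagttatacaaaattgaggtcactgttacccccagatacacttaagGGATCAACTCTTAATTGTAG
DNAJC19: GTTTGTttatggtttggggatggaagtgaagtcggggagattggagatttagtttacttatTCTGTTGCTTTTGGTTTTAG
RPL17-C18orf32: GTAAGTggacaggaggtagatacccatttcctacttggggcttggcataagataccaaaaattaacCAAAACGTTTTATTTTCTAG

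The raised introns of ACTR10, a dynactin subunit, CNOT2, a subunit of the CCR4-NOT deadenylase complex, and COPS3, a subunit of the COP9 signalosome, were rich in A and T. G and C made up 25.9%, 25.8% and 22.7% of their bases. The introns of ATXN2L, an ataxin-2-like RNA-binding protein, and ERBB3, a receptor of the EGF receptor family, held 43.8% and 47.7%. The median over these 5 was 25.9%, against 65.0% over the 18 unraised introns of 81 to 90 bp with a sequence, which ran between 32.5% and 71.6%. The low G and C content was not shared by every raised intron, and 5 sequences are too few to describe the 64 raised introns. The exon bases next to the introns, which were held for all of them, had a median G and C share of 57% for the 43 short introns raised after WBP11 auxin and 58% for the 123 short introns that were not.

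A second set of sequences shows the 4 introns raised by at least 10 points after SNW1 RNAi for which a sequence was held. Capitals again mark the first 6 and the last 20 bases. The positions (hg38) are ADCY6 chr12:48777232-48777409 (minus strand), GCN1 chr12:120155041-120155240 (minus strand), NAPA chr19:47493175-47493415 (minus strand) and TPP1 chr11:6617429-6617625 (minus strand).
ADCY6: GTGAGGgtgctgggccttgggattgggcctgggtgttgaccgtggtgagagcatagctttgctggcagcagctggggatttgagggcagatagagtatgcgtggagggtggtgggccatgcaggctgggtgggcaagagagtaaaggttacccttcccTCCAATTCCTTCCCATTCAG
GCN1: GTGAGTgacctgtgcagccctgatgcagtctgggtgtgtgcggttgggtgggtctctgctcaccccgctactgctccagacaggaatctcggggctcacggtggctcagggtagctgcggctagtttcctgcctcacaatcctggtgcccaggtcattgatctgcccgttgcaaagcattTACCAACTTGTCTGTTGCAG
NAPA: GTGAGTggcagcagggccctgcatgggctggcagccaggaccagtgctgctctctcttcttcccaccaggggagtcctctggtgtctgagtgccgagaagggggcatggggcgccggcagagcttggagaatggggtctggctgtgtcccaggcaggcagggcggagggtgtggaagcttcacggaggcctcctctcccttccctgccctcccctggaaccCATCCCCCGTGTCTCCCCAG
TPP1: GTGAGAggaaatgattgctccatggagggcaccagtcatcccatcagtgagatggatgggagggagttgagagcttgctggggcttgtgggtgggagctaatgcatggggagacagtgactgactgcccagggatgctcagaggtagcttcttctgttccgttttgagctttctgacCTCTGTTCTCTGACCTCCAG

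These introns were longer, at 178 to 241 bp, and richer in G and C, with a median of 58.5% and a range of 54.3% to 67.2%. All 4 began with GTGAG, as did 25 of the 73 introns with a sequence, whereas 3 of the 5 introns raised after WBP11 auxin began with GTAAG and 0 with GTGAG. Of the 73 introns, 72 ran GT to AG and 1 ran GC to AG. Reading on in frame from the upstream exon met a stop codon inside 54 of the 73 introns and none in the other 19. Those without a stop included the raised introns of ACTR10, ATXN2L, COPS3 and NAPA, and the unraised one of PDHB, a pyruvate dehydrogenase subunit.

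Most of the 1156 introns stayed almost fully spliced in every library. The median retention was 2.20% in SNW1 RNAi and 0.304% in its control, and 2.16% in WBP11 auxin and 0.436% in the auxin control. A rise of at least 10 points was found for 27 introns (2.34%) after SNW1 RNAi and for 64 (5.54%) after WBP11 auxin. Over all introns of the tables with a depth of at least 50, the same rise was found for 13.5% after SNW1 RNAi and 12.8% after WBP11 auxin. The selection used these comparisons, and nothing is read from the shares. WBP11 RNAi listed 465 of the 1156 introns, with a median of 1.86% against 0.362% in the control. Of the 465, 7 (1.51%) rose by at least 10 points, with no depth minimum in the WBP11 RNAi library. The share was 6.84% over all introns of that table with a depth of at least 50 in both libraries. No intron of the 1156 fell by 10 points in any comparison, as their controls left no room for a fall of that size.

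The rises themselves were small and had a long upper tail. The median rise was 1.87 points after SNW1 RNAi, 1.69 after WBP11 auxin and 1.58 after WBP11 RNAi, against 2.18, 1.27 and 0.633 points over all introns of each table with that depth. After SNW1 RNAi the rises ran between 0.048 and 19.9 points, and 125 introns passed 5 points and 0 passed 20. After WBP11 auxin they ran between 0.098 and 50.3 points, and 167 introns passed 5 points and 14 passed 20.

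The introns raised after loss of WBP11 in the degron line were mostly the shortest of the range. Of the 166 introns of 81 to 90 bp, 43 (25.9%) rose by at least 10 points after WBP11 auxin, against 21 of the 990 longer ones (2.12%). The share was 8.54% (7 of 82) at 91 to 100 bp and 5.56% (5 of 90) at 101 to 125 bp, and did not exceed 2.83% in any longer bin. After SNW1 RNAi the same short introns gave 1 of 166 (0.602%), the 81-bp intron of RECQL4, a DNA helicase, and the longer ones 26 of 990 (2.63%). The SNW1 RNAi share was highest at 151 to 200 bp, with 6 of 86 introns (6.98%), and at 201 to 300 bp, with 6 of 106. WBP11 RNAi raised 1 of 55 listed introns of 81 to 90 bp (1.82%) and 6 of 410 longer ones (1.46%), and the short share rests on a single intron.

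**Figure D1:**
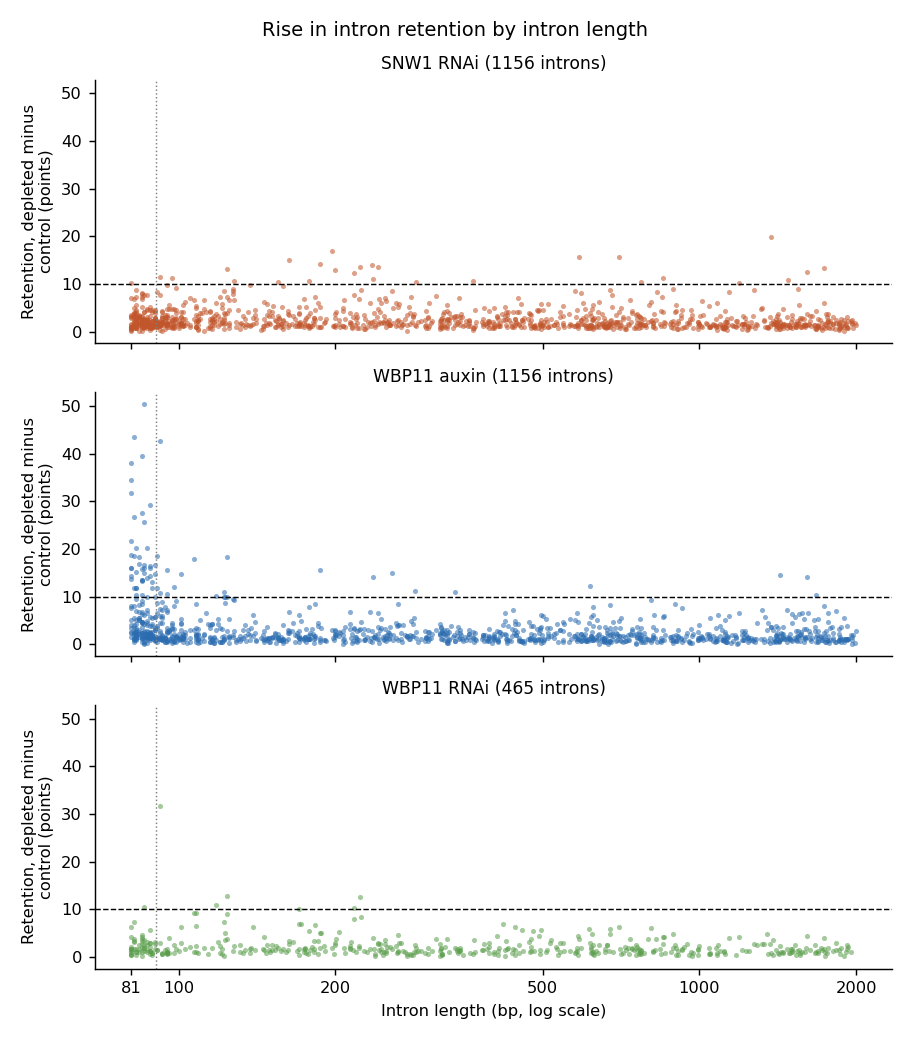
Rise in retention (depleted minus control, percentage points) against intron length (log scale) for each intron, with 1 panel per comparison. The dashed line marks 10 points and the dotted line 90 bp. The points above 20 in the WBP11 auxin panel lie almost all left of the dotted line, while those above 10 in the SNW1 RNAi panel are spread over the whole length range.

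The contrast after WBP11 auxin was also present when the control ceiling was applied within each table alone, without asking for both lists. The order after SNW1 RNAi was not kept. With the auxin control below 1%, WBP11 auxin raised 95 of 454 introns of 81 to 90 bp (20.9%) and 63 of 2540 introns of 91 to 2000 bp (2.48%). With the RNAi control below 1%, SNW1 RNAi raised 25 of 481 (5.20%) and 120 of 5881 (2.04%). WBP11 RNAi then raised 8 of 251 (3.19%) and 18 of 2063 (0.873%). In these wider sets all 3 depletions raised a larger share of introns at 81 to 90 bp than above, with the largest gap in WBP11 auxin. Introns shorter than the range gave 38.1% (56 of 147) in WBP11 auxin, 13.8% (27 of 196) in SNW1 RNAi and 10.48% (13 of 124) in WBP11 RNAi.

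**Figure D2:**
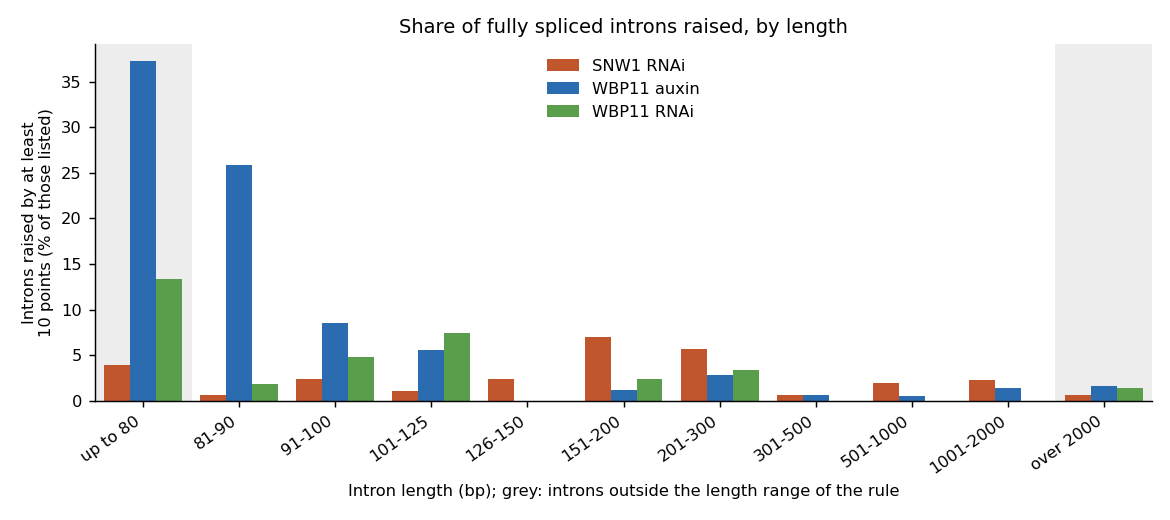
Percentage of introns raised by at least 10 points in each length bin, for introns below 1% in both controls, with bars for SNW1 RNAi, WBP11 auxin and WBP11 RNAi. The grey bins lie outside the length range of the 1156 introns, and the WBP11 auxin bars drop between the bins up to 90 bp and the longer ones.

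The lower length limit fell inside this gradient. At 80 bp, just outside the limit, 2 of 9 introns rose after WBP11 auxin, and at 81 bp, just inside it, 9 of 17 did. Of the 51 introns of up to 80 bp that were below 1% in both controls, 19 (37.3%) rose after WBP11 auxin and 2 after SNW1 RNAi, with a median WBP11 auxin rise of 7.45 points. Of the 314 introns over 2000 bp, 5 rose after WBP11 auxin and 2 after SNW1 RNAi. The control ceiling cut between introns whose auxin control values were nearly the same, while their other values could differ. GYS1, glycogen synthase of muscle, was just inside it with 4.204% in SNW1 RNAi and 0.169% in its control, and 4.07% in WBP11 auxin and 0.9998% in the auxin control. HIP1R, an actin- and clathrin-binding protein, was just outside it with 11.01% in SNW1 RNAi and 0.862% in its control, and 6.82% in WBP11 auxin and 1% in the auxin control.

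The short introns raised after WBP11 auxin also showed fewer spliced reads. The 43 introns of 81 to 90 bp raised by at least 10 points had a median of 73.2% of the auxin control's spliced reads, after scaling to the listed introns, and the 123 short introns not raised had 95.1%. Spliced reads enter the retention ratio, so this is another view of the same reads and no separate evidence. Reads covered the whole measured intron in WBP11 auxin for 63 of the 64 raised introns, and the median coverage of the 43 short ones was 38.3. The caller warned of uneven coverage in WBP11 auxin for 17 of the 64, and in SNW1 RNAi for 11 of the 27 raised there.

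The largest rises after WBP11 auxin were in introns of 81 to 92 bp of genes with varied roles. AP3B1, a subunit of the AP-3 vesicle adaptor, kept its 86-bp intron 10 of 26 at 50.3% in WBP11 auxin and 0% in the auxin control, at 3.03% in SNW1 RNAi and 10.9% in WBP11 RNAi against 0.539% in their shared control. The interval of its WBP11 auxin rise ran between 38.0 and 61.0 points, and that of its SNW1 RNAi rise between -3.74 and 9.55 points. In WBP11 auxin the caller warned of uneven coverage at this intron. KIF1C, a kinesin motor, kept its 81-bp intron 10 of 22 at 38.1% in WBP11 auxin and 0% in the auxin control, and at 1.09% in SNW1 RNAi and 6.51% in WBP11 RNAi against 0.222% in the control. SF3B2, a subunit of the U2 snRNP that recognises the branch point, was the deepest of these, with 39.7% at its 85-bp intron 18 of 21 in WBP11 auxin and 0.221% in the auxin control. In SNW1 RNAi that intron was at 1.61% and in WBP11 RNAi at 4.89%, against 0.228% in the control. These introns were high in WBP11 auxin and far lower in both RNAi libraries. That the RNAi libraries lay above the control was set by the selection and the listing, whereas the size of the rise was not. The interval of the WBP11 RNAi rise ran between 2.33 and 20.5 points for AP3B1. It ran between 4.14 and 8.88 points for KIF1C and between 3.22 and 6.09 points for SF3B2. The interval of the SNW1 RNAi rise of KIF1C ran between -0.384 and 2.93 points, and that of SF3B2 between 0.228 and 2.59 points.

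The next largest rises had the same shape. TBL3, a component of the small-subunit processome of ribosome assembly, was at 44.3% in WBP11 auxin and 0.897% in the auxin control at its 82-bp intron 8 of 21, and SMTN, the actin-binding smoothelin, was at 34.7% in WBP11 auxin and 0.174% in the auxin control at its 81-bp intron 9 of 20. TRPM7, a channel with a kinase domain, was at 31.8% in WBP11 auxin and 0% in the auxin control. LRCH4, a leucine-rich repeat membrane protein, was at 29.6% in WBP11 auxin and 0.299% in the auxin control. In SNW1 RNAi these 4 introns were at 3.82%, 2.93%, 1.09% and 2.13%, and in WBP11 RNAi at 4.01%, 4.23%, 3.08% and 5.76%. Of the 8 largest rises after WBP11 auxin, the intron of PLD2 was the only one also raised by 10 points after SNW1 RNAi.

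**Figure D3:**
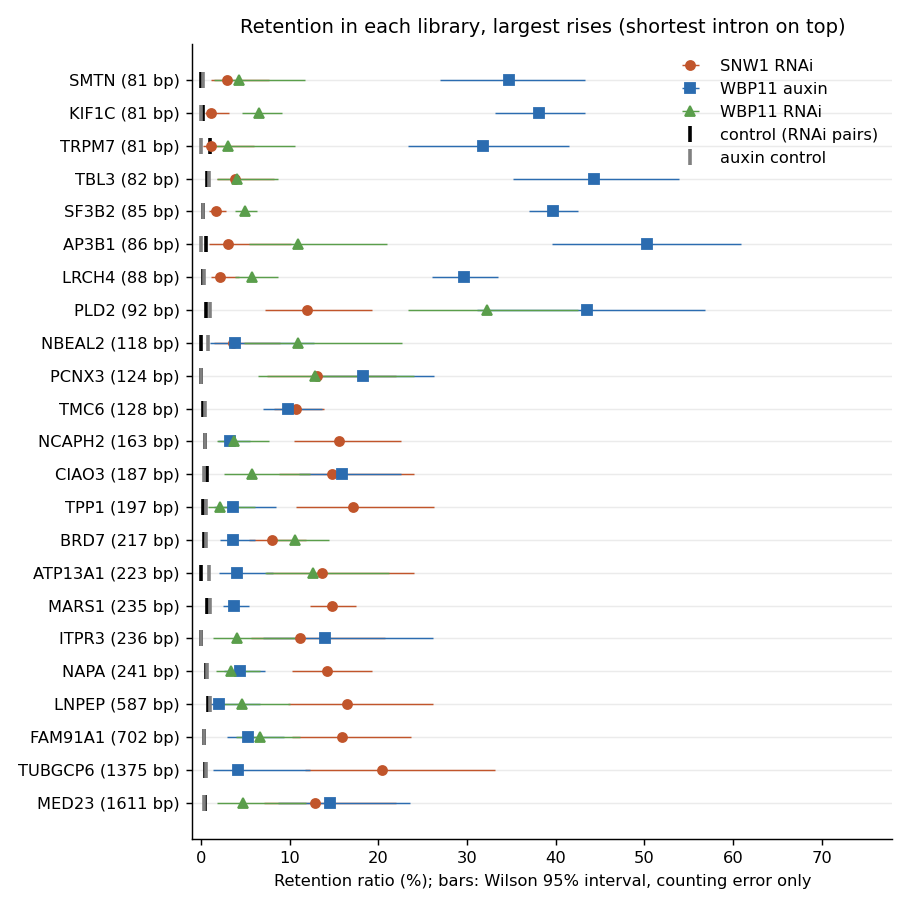
Retention ratio (%) in each of the 5 libraries for the introns with the largest rises, ordered by length with the shortest on top. Bars are Wilson 95% intervals for counting error in the depleted libraries and ticks are the control libraries. WBP11 auxin stands far to the right for the introns of 81 to 92 bp, and SNW1 RNAi is the highest library for most of the longer ones.

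The largest rises after SNW1 RNAi were in introns of 163 to 1375 bp. TUBGCP6, a subunit of the gamma-tubulin ring complex, kept its 1375-bp intron 4 of 24 at 20.4% in SNW1 RNAi and 0.457% in the control, and at 4.15% in WBP11 auxin and 0.490% in the auxin control. The interval of the SNW1 RNAi rise ran between 9.92 and 32.7 points, and that of the WBP11 auxin rise between -2.43 and 11.8 points. TPP1, a lysosomal peptidase, was at 17.2% in SNW1 RNAi and 0.176% in the control at its 197-bp intron 4 of 12, whose sequence is given above, and at 3.57% in WBP11 auxin and 0.508% in the auxin control. LNPEP, a membrane aminopeptidase, was at 16.4% in SNW1 RNAi and 0.786% in the control. NCAPH2, a condensin II subunit, was at 15.5% in SNW1 RNAi and 0.427% in the control, and FAM91A1, a Golgi trafficking protein, was at 15.9% in SNW1 RNAi and 0.335% in the control. In WBP11 auxin these 3 introns were at 2.04%, 3.25% and 5.23%, so they were high in SNW1 RNAi and near the typical level of the 1156 introns or a few points above it in WBP11 auxin.

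MARS1, the cytosolic methionyl-tRNA synthetase, was at 14.7% in SNW1 RNAi and 0.686% in the control at a 235-bp intron, with a narrow interval of 11.5 to 16.8 points for the rise. NAPA, the SNARE-disassembly factor alpha-SNAP, was at 14.2% in SNW1 RNAi and 0.554% in the control at its 241-bp intron 5 of 10, printed above. In WBP11 auxin these introns were at 3.67% and 4.35%, against 0.938% and 0.676% in the auxin control.

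A rise of at least 10 points after both SNW1 RNAi and WBP11 auxin was found for 5 of the 1156 introns (0.433%). After SNW1 RNAi 27 of the 1156 rose, and after WBP11 auxin 64. The share raised after both was 8.12% (714 of 8793) over all introns with a depth of at least 50 in all 4 libraries. Those include introns already retained in the controls, so nothing is read from the gap. PLD2, a phospholipase D, was at 11.99% in SNW1 RNAi and 0.552% in its control, and at 43.6% in WBP11 auxin and 0.958% in the auxin control, at its 92-bp intron 5 of 24. PCNX3, a pecanex family membrane protein, was at 13.0% in SNW1 RNAi, 18.2% in WBP11 auxin and 0% in both controls at its 124-bp intron 17 of 34. CIAO3, a factor of cytosolic iron-sulfur protein assembly, was at 14.8% in SNW1 RNAi and 0.598% in the control, and at 15.9% in WBP11 auxin and 0.368% in the auxin control. The last intron of CIAO3, 187 bp long, carried this rise. ITPR3, a calcium release channel, was at 11.1% in SNW1 RNAi and 14.0% in WBP11 auxin, and 0% in both controls. MED23, a Mediator subunit, was at 12.8% in SNW1 RNAi and 14.6% in WBP11 auxin, against 0.377% and 0.343% in their controls. The choice of these 5 introns set both depleted libraries above both controls. Of the 5, 4 were longer than 100 bp, as were 908 of all 1156 introns, so their length does not set them apart.

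In WBP11 RNAi, PLD2 and PCNX3 were also the most retained, at 32.2% and 12.8%, against 0.552% and 0% in the control. The other introns raised there were those of ATP13A1, NBEAL2, AP3B1, BRD7 and EXOC5. ATP13A1, an ATPase of the endoplasmic reticulum, was at 12.6% in WBP11 RNAi and 0.0112% in the control. NBEAL2, a BEACH domain protein of platelet granules, was at 10.9% in WBP11 RNAi and 0% in the control. BRD7, a bromodomain protein of the PBAF complex, was at 10.53% in WBP11 RNAi and 0.329% in the control, and EXOC5, an exocyst subunit, at 10.2% in WBP11 RNAi and 0.133% in the control. The ATP13A1 intron was at 13.6% in SNW1 RNAi and 4.07% in WBP11 auxin, against 0.0112% in the RNAi control and 0.902% in the auxin control. NBEAL2, BRD7 and EXOC5 passed 10 points in WBP11 RNAi and in neither other comparison.

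Across the 1156 introns the rises after SNW1 RNAi and WBP11 auxin, which have separate controls, were weakly related (Pearson's r 0.16, Spearman's rho 0.20). The points are introns of shared genes and libraries, so these values are descriptions. For the 990 introns over 90 bp r was 0.32 and rho 0.23, and for the 166 of 81 to 90 bp they were 0.0085 and 0.037. For WBP11 RNAi and WBP11 auxin, r was 0.41 and rho 0.34 over the 465 introns listed in both, and over the same 465 introns SNW1 RNAi and WBP11 auxin gave 0.11 and 0.17. By length, WBP11 RNAi and WBP11 auxin gave 0.59 and 0.43 over the 55 listed introns of 81 to 90 bp, and 0.56 and 0.34 over the 410 longer ones. WBP11 RNAi and SNW1 RNAi share their control library, so no relation between them is given.

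**Figure D4:**
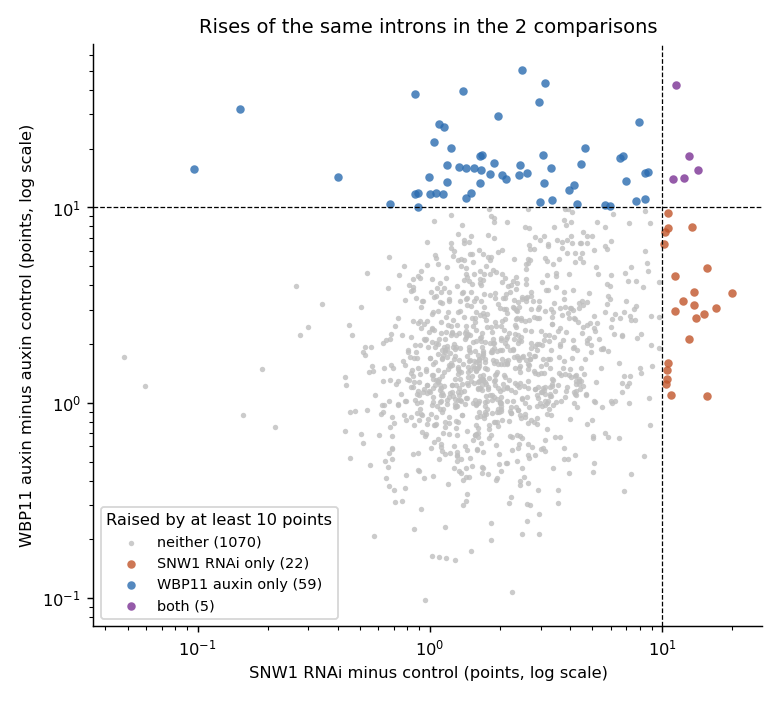
Rise after WBP11 auxin against rise after SNW1 RNAi for each of the 1156 introns, in percentage points on log axes, with dashed lines at 10 points. The 59 introns raised after WBP11 auxin alone and the 22 raised after SNW1 RNAi alone form separate arms, and 5 lie past both lines.

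The WBP11 RNAi table gave another view of the short introns. Of the 43 introns of 81 to 90 bp raised after WBP11 auxin, 30 (69.8%) were listed in WBP11 RNAi, which for these introns means that retention there reached 1%, and 25 of the 123 unraised ones (20.3%) were. Among those listed, the median WBP11 RNAi rise was 2.86 points for the introns raised after WBP11 auxin and 1.62 points for the others. Over 90 bp, 17 of 21 raised introns (80.95%) and 393 of 969 unraised ones (40.6%) were listed. The median depth in the shared control was 210 for the 43 short raised introns and 241 for the 123 unraised ones. Of the 30 listed short introns raised after WBP11 auxin, only that of AP3B1 rose by 10 points after WBP11 RNAi.

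In nearly all genes that had several of the 1156 introns and at least 1 raised, another intron of the set was not raised. Over all 1156 introns, 5.54% rose after WBP11 auxin and 2.34% after SNW1 RNAi. An unraised partner was therefore the usual case, and nothing is read from how often it occurred. Of 25 genes that had several of the 1156 introns and at least 1 raised after WBP11 auxin, 22 had 1 raised and 3 had 2, and 43 of their 71 introns were not raised. An unraised intron was present in 24 of the 25 genes. The exception was HDAC5, a histone deacetylase, whose introns of 84 and 340 bp were at 18.6% and 11.2% in WBP11 auxin, against 0.321% and 0.271% in the auxin control. After SNW1 RNAi, all 15 such genes had 1 raised, and 22 of their 37 introns were not. In KIF1C, the 81-bp intron 10 was at 38.1% in WBP11 auxin and 0% in the auxin control, while its introns 2, 5, 7 and 8, of 249, 657, 88 and 769 bp, were at 3.46%, 1.40%, 2.91% and 5.73% in WBP11 auxin. In TBL3, the 82-bp and 83-bp introns were at 44.3% and 15.9% in WBP11 auxin, and the introns of 97 and 1850 bp at 2.47% and 1.13%. In PLCB3, a phospholipase C, introns of 81 and 85 bp were at 14.3% and 14.2% in WBP11 auxin, and those of 82, 84 and 255 bp at 1.40%, 8.29% and 1.90%. Lengths near the lower limit were shared by raised and unraised introns of 1 gene.

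The genes with the most introns in the set were CHD3, a chromatin remodelling ATPase, and TLN1, the integrin-binding talin, with 7 each. The 7 introns of CHD3 were at 1.80% to 6.995% in SNW1 RNAi and at 1.01% to 4.96% in WBP11 auxin, and none rose by 10 points. In TLN1, 6 introns were at 1.39% to 6.79% in WBP11 auxin, and the 98-bp intron 47 of 56 was at 11.9%, against 0% in the auxin control. The dynein heavy chain gene DYNC1H1 and ESYT1, an extended synaptotagmin, had 6 each and no raised intron. DYNC1H1 had its highest values at its 262-bp intron, 6.17% in SNW1 RNAi, and its 88-bp intron, 5.78% in WBP11 auxin. In all, 706 of the 891 genes had a single intron in the set and 140 had 2.

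The deepest of the 1156 introns remained near the lower bound of the selection. EEF2, the elongation factor that moves the ribosome, was at 1.45% in SNW1 RNAi and 0.332% in the control, and at 1.15% in WBP11 auxin and 0.558% in the auxin control. KRT19, an epithelial keratin, was at 2.59% in SNW1 RNAi and 0.547% in the control, and at 1.27% in WBP11 auxin and 0.458% in the auxin control. ALDOA, a glycolytic aldolase, was at 1.17% in SNW1 RNAi and 2.40% in WBP11 auxin at an intron of 83 bp, against 0.315% and 0.699% in their controls. CD9, a tetraspanin, was at 1.13% in SNW1 RNAi and 1.69% in WBP11 auxin. The 86-bp intron of RPL17-C18orf32, a read-through of 2 genes whose reads cannot be told apart from those of RPL17, was at 1.23% in SNW1 RNAi and 1.26% in WBP11 auxin, against 0.443% and 0.896% in their controls. All these rises were at most a few points.

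Among 15 gene lists, splicing factors had the most raised introns after WBP11 auxin. Of 24 introns in 21 splicing factor genes, 3 (12.5%) rose after WBP11 auxin and 0 after SNW1 RNAi, against 5.54% and 2.34% of the 1156 introns, with a median rise of 1.605 points after WBP11 auxin. The 3 were all of 83 to 85 bp. Beside SF3B2 they were SF3B1, the largest SF3b subunit, at 16.2% in WBP11 auxin and 0.525% in the auxin control, and PRPF19, a ubiquitin ligase of the spliceosome, at 10.9% in WBP11 auxin and 0.696% in the auxin control. Of these 24 introns 8 were of 81 to 90 bp, and a count of 3 does not set the list apart. RBM26, an RNA-binding protein of the list, was at 9.33% in SNW1 RNAi and 0.937% in the control and did not pass 10 points.

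The counts in the other lists were too small to set any list apart from the 1156 introns. Of those 1156, 2.34% rose after SNW1 RNAi and 5.54% after WBP11 auxin. Of 29 introns in 18 genes of chromosome and spindle proteins, 2 rose after SNW1 RNAi (TUBGCP6 and NCAPH2) and 2 after WBP11 auxin. Those 2 were the introns of KIF1C and of SMC1A, a cohesin subunit, at 14.8% in WBP11 auxin and 0% in the auxin control. Of 8 introns of translation factors 1 rose after WBP11 auxin, that of EIF3A, a subunit of the initiation factor eIF3, at 11.8% in WBP11 auxin and 0.0216% in the auxin control. Of 9 introns of the tubulin and actin cytoskeleton 1 rose after WBP11 auxin, that of ACTR10, at 21.7% in WBP11 auxin and 0% in the auxin control. Of 10 introns of aminoacyl-tRNA synthetases 1 rose after SNW1 RNAi, that of MARS1, and of 6 introns of zinc finger genes 1, that of ZNF335, at 10.7% in SNW1 RNAi and 0.231% in the control. The ubiquitin pathway (28 introns), MAP and cyclin kinases (15), solute carriers (12), the proteasome (6), the respiratory chain (6), mitochondrial ribosomal proteins (5), DNA repair (3) and DNA replication (1) had no raised intron in any comparison. The lists were matched by the start of the gene symbol, not by function. The 1 intron of the DNA replication list was in MCM3AP, and the respiratory chain list included NDUFAF6. Cytosolic ribosomal proteins, matched by symbol, had 0 introns in the set. No intron of WBP11, SNW1 or CDCA5 was in it.

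The 1156 introns were mostly internal introns of coding sequence. By position in GENCODE release 29, 1147 lay between coding bases, 7 in the 5' UTR, 1 in the 3' UTR and 1 in a noncoding transcript, while 36 were first introns and 83 last introns. All 89 introns raised in any comparison were in coding sequence, and 1 of them was a first intron, that of TMC6, a transmembrane channel-like protein, at 10.7% in SNW1 RNAi and 0.160% in the control. A length divisible by 3 was found for 378 of the 1156 introns (32.7%) and for 23 of the 89 (25.8%). Phase 0 introns, which fall between codons, made up 50.4% of all and 60.7% of those raised. The raised introns came from transcripts with a median of 21 introns, against 17 over the whole set.

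Other introns of the same genes, outside the set, gave larger shares where one of the set had risen, a difference that was not tested. In the 61 genes with an intron of the set raised after WBP11 auxin, 86 of 359 other listed introns (24.0%) rose by at least 10 points after WBP11 auxin, against 16.1% in genes of the set with none raised and 11.4% in genes with no intron in the set. After SNW1 RNAi the shares were 30.9% (67 of 217), 17.2% and 11.7%. Control retention moved with these groups. For SNW1 RNAi the median control retention of the other introns was 1.79% where an intron of the set had risen, 1.10% where none had and 1.13% in genes with no intron in the set, and their median lengths were 187, 302 and 596 bp. The part of length and control retention in these shares was not tested.

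Introns of the same length range that the controls already kept gave larger shares. Of 471 introns of 81 to 2000 bp retained at 10% or more in both controls, 335 (71.1%) rose by at least 10 points after SNW1 RNAi, 196 (41.6%) after WBP11 auxin and 156 (33.1%) after both. Of these 471, 6 fell by 10 points after SNW1 RNAi and 40 after WBP11 auxin. No test was made of the difference between the sets, which were chosen by their control values.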

How the data were processed

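Polyadenylated RNA of 5 DLD-1 libraries was sequenced after column isolation and DNase treatment, per the labels. Each of the 3 deposited tables sets 1 depleted library beside 1 control. IRFinder and STAR are named in the file headers, while RSEM, bedtools and hg38 are in the submitters' processing notes, all without a version (not given in the sources used). Retention is deposited as a fraction, which IRFinder defines as intron coverage over coverage plus spliced reads. Intron coverage is a signal, and spliced reads a count per intron, as deposited. The ratio was used as deposited. It differed from one recomputed from the columns by at most 7.64 points, for XRN2 in WBP11 auxin, and by over 1 point for 11 of the 1156 introns there. Reads of overlapping transcripts can count as retention.

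Depth was coverage plus spliced reads, at least 50 in each library used. The spliced reads of the listed introns summed to 4170988 in SNW1 RNAi and 5527186 in its control, 4927556 in WBP11 auxin and 4276828 in the auxin control, and 2987572 in WBP11 RNAi and 3146434 in the control, which are parts of the libraries and not their depths. The RNAi tables hold the same control values at all 13412 introns they share. An intron was called raised at a rise of 10 percentage points. Wilson and Newcombe intervals of 95% treat depth as the number of observations, although reads are not independent molecules. All 34560 introns matched GENCODE release 29, which gave positions, phases, 50 exon bases on each side and 73 intron sequences. Gene names are current symbols found by gene identifier.

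The introns, gene lists and naming rule were chosen with earlier results of these data known. The rule named the introns with the largest rises in each comparison, in both, and in one over the other, the deepest, those nearest the ceiling, the genes with the most introns, and up to 2 introns per list. Other genes named, such as RECQL4, EIF3A, SMC1A, SF3B1, ACTR10, PLCB3, HDAC5, EXOC5 and those with printed sequences, were chosen after their values were seen. Alternatives changed the size of rise, depth minimum, control ceiling, introns per gene, warnings, the spliced reads used and centring. Python 3.11.15, numpy 2.4.6, pandas 2.3.3, scipy 1.17.1 and matplotlib 3.10.9 were used.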

Additional observations from a re-analysis of the deposited data

How the results depend on the processing

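With 1 library per group, every value rests on 2 libraries, so a library effect and the depletion cannot be told apart, and counting intervals understate the error. The counts of raised introns below are in the order SNW1 RNAi (27), WBP11 auxin (64), WBP11 RNAi (7) and both SNW1 RNAi and WBP11 auxin (5). At a rise of 5 points they were 125, 167, 35 and 32, and at 20 points 0, 14, 1 and 0. With a depth minimum of 100 (676 introns) they were 10, 36, 2 and 0. With a control ceiling of 0.5% (502 introns) they were 8, 25, 2 and 3, and at 2% (2725 introns) 72, 147, 20 and 9. These settings change how many introns are counted or kept. Leaving out introns with a warning gave 10, 39, 4 and 3. With 1 intron per gene, the count for SNW1 RNAi was 16 and for both 3. Centring on each table's median gave 14 for SNW1 RNAi, 4 for WBP11 RNAi and 3 for both, and turned the median change after SNW1 RNAi to -0.309 points, with 0.42 points after WBP11 auxin (1.69 without centring) and 0.948 after WBP11 RNAi (1.58), since each table's median was subtracted. Leaving out introns of 81 to 90 bp, chosen after seeing the data, gave 21 after WBP11 auxin. The other counts stayed within 1.5 times of the main count, and the other medians kept their direction and lay within the median of the introns' own counting intervals. The share raised after WBP11 auxin at 81 to 90 bp was above that of longer introns in the main setting and these 9 others: 5 and 20 points, both ceilings, a depth of 100, no warnings, exactly spliced reads, 1 intron per gene and centring. It was 27.6% and 2.08% with 1 intron per gene, 24.1% and 1.41% with centring, 25.3% and 3.62% without warnings, 24.4% and 1.26% at a depth of 100, and 21.5% and 1.89% at the 0.5% ceiling. No paired analysis was possible because each group has 1 library.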
